A study of Drosophila melanogaster with 2 samples.

Results

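The cytosolic ribosomal protein genes of Drosophila melanogaster are described here by the binding of a tagged Slbo protein at their promoters. The members were the protein-coding genes of the Ensembl BDGP6 annotation whose symbol begins with RpL or RpS and a digit, or with RpLP, together with sta, which encodes the small-subunit protein SA. They numbered 93 of the 13945 protein-coding genes on the 6 large chromosome arms, namely X, 4, 2L, 2R, 3L and 3R. By symbol alone, 50 were counted as large-subunit genes (RpL), 39 as small-subunit genes (RpS and sta) and 4 as genes of the ribosomal stalk (RpLP). Symbols ending in -like were counted with their prefix, whatever the role of their product. Binding was measured by ChIP-seq, the sequencing of DNA recovered by immunoprecipitation of chromatin, in whole embryos of the strain slbo-GFP, collected between 8 and 24 h of age, with an insertion aimed at slbo that yields an Slbo protein fused to eGFP. The samples were 2 biological replicates of this 1 group, and no other genotype, stage or control sample was compared. The sample descriptions name an antibody against GFP, whereas the antibody label reads slbo. The embryos contain many cell types, so a peak does not tell in which cells the protein was bound, and strong binding in few cells cannot be told apart from weak binding in many.

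Ribosomal protein genes supply the proteins of the 2 ribosomal subunits, in amounts that must match one another and the ribosomal RNA. In the fly, many are Minute genes, for which loss of 1 copy slows development and shortens bristles. Their promoters are known for a polypyrimidine initiator (TCT) in place of the usual initiator and for elements bound by the factors DREF and M1BP. Slbo is a C/EBP protein of the basic leucine zipper family, best known for border cell migration in the ovary.

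A member was counted as bound when the summit of a thresholded peak, the position of its highest signal, lay within 1 kb of any annotated start site of the gene. The series-level list, made from both replicates, placed a summit at 71 of the 93 members, or 76.3%, against 5080 of all protein-coding genes, or 36.4%. Replicate 1 alone had a summit at 73 members (78.5%), against 34.1% of all protein-coding genes. Replicate 2 alone had a summit at 66 members (71.0%), against 26.7% of all protein-coding genes. Over the replicates the share of members was 74.7% ± 5.32 and that of all protein-coding genes was 30.4% ± 5.28 (SD, n = 2 each). In both replicates the members' share was above the share of all genes by more than the spread between the replicates. The conservative list, a stricter set of peaks of both replicates, had 70 members (75.3%), against 34.8% of all protein-coding genes. A summit in all 3 of the series-level and replicate lists was found at 65 members (69.9%), against 25.3% of all protein-coding genes. With 1 group and 2 samples no test of the members against other genes was made, and these shares are given as descriptions.

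The share was similar for the parts of the ribosome. The series-level list held a summit at 37 of 50 large-subunit genes (74.0%), at 31 of 39 small-subunit genes (79.5%) and at 3 of 4 stalk genes. RpLP0-like is among these 3 by its symbol. Among other translation genes, 51 of 73 genes of the mitochondrial ribosome (mRpL and mRpS) had a series-level summit, or 69.9%, but 34 of 73 in replicate 2. Of the 44 genes of translation initiation factors (eIF symbols), 17 had one, or 38.6%. With a summit credited only to the nearest protein-coding start site, 27 of the 73 genes of the mitochondrial ribosome had one (37.0%). The members then had one at 62 of 93 (66.7%), against 27.5% of all protein-coding genes.

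Sequences near the summits are shown for members that hold 1 of 2 elements known from housekeeping promoters of the fly within 50 bp of the summit. The members are those of highest signal on the arms 2L, 3L, 3R and X. Their windows surround the element, and not all of them include the summit base. The sequences were read from the RefSeq copy of the dm6 assembly, 5′ to 3′ on the strand of the gene. In the first set, capitals mark TATCGATA, the core of the element bound by DREF, which reads the same on both strands.
RpS29: atcgtggaaaaTATCGATActgccaccccc
RpL28: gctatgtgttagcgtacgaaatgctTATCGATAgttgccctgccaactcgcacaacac
RpS25: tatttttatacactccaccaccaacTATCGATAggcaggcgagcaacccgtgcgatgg
RpS15Aa: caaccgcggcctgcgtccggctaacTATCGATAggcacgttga
These windows lie at chr3R:9778046-9778075 (plus strand), chr3L:3223020-3223077 (minus strand), chr3R:11216314-11216371 (minus strand) and chrX:13337696-13337738 (minus strand). The centre of the element was 22.5 bp from the summit at RpS29, 25.5 bp at RpL28, 0.5 bp at RpS25 and 20.5 bp at RpS15Aa.
In the second set, capitals mark GGTCACAC, the core of motif 1, which M1BP binds, and all 4 members carry it in this orientation on their own strand.
RpLP0: gccatcgaagcGGTCACACtgggtgccgcc
RpL27A: cgccgccgggcGGTCACACtgctacaaccg
RpL30: atccccccgtcGGTCACACcaacacaaacg
RpL37A: tatcgagcggcGGTCACACttttcgctctt
These windows lie at chr3L:22076054-22076083 (plus strand), chr2L:4458330-4458359 (minus strand), chr2L:19009261-19009290 (minus strand) and chr2L:5070979-5071008 (plus strand). The centre of the element was 2.5 bp from the summit at RpLP0, 29.5 bp at RpL27A, 33.5 bp at RpL30 and 35.5 bp at RpL37A.
The members with the highest signal of all, RpL34b and RpS27, held neither element within 50 bp of the summit, and in their windows the capital marks the summit base.
RpL34b: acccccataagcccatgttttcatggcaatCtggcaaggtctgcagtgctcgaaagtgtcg
RpS27: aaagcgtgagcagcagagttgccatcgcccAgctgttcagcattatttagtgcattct
They lie at chr3R:9401274-9401334 and chr3R:25247505-25247562, both on the minus strand.

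Among genes with a promoter summit in the same list, peaks at ribosomal protein promoters were mostly of middle strength. The signal is the value the peak caller gave each peak. No source says whether it was adjusted for sequencing depth, and sizes are therefore read only within a list. The strongest promoter summit of the 71 members had a median signal of 231, with a range of 88.7 to 1072. Over all 5080 genes with a promoter summit the median was 183 and the highest value was 5564. The members' median percentile among those genes was 59.6 in the series-level list, 57.3 in replicate 1 and 50.3 in replicate 2, or 53.8 ± 4.95 over the replicates (SD, n = 2). The median thus lay above the middle of all genes by less than the spread between the replicates. In the series-level list 49 of the 71 members lay above the median of all genes. The top quartile held 16 of the 71 members and the bottom quartile 4. The top decile, the 508 genes of highest signal out of 5080, held 6. In replicate 2, 34 of 66 members lay above the median of all genes, with 12 in the top quartile and 8 in the bottom quartile. The top decile of replicate 2, 372 of 3720 genes, held 2 members. With only those series-level peaks that overlap a thresholded peak of each replicate, the median percentile was 46.1, below the middle of all genes. The genes of the mitochondrial ribosome had a median signal of 167 in the series-level list. Over all peaks, wherever they lay, the median signal was 121 in the series-level list, 85.5 in replicate 1 and 79.0 in replicate 2. The members' medians were above these, at 231, 141 and 102.

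**Figure D1:**
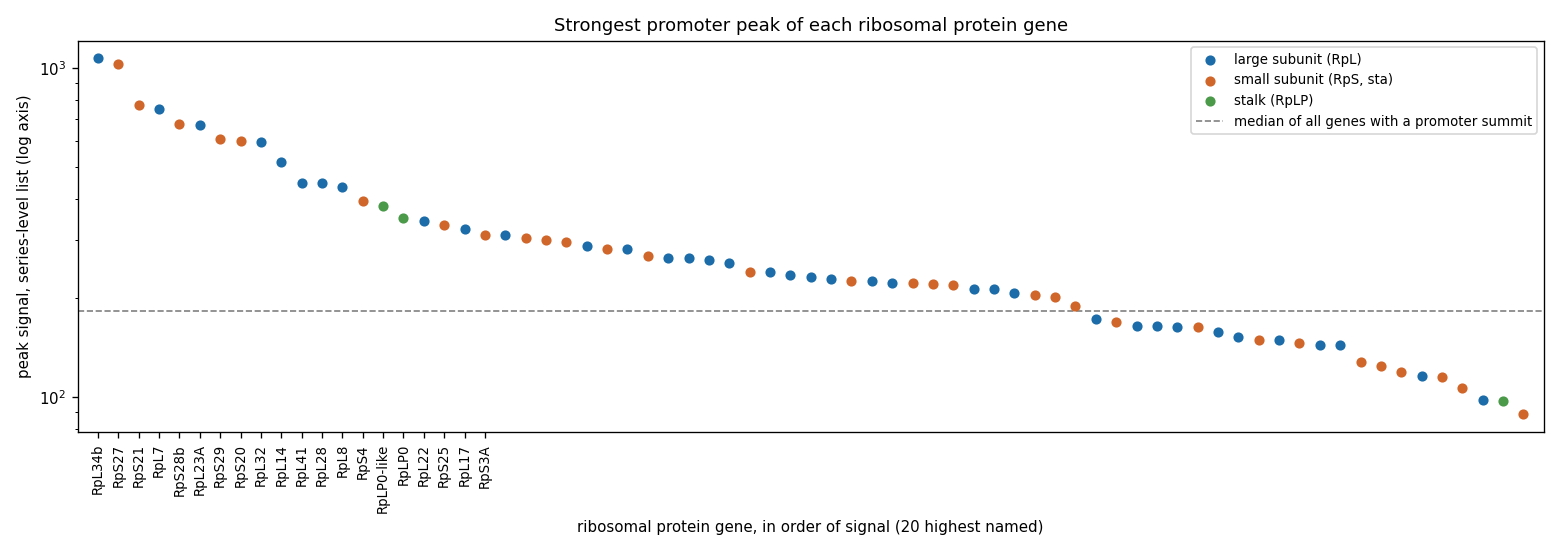
Signal of the strongest promoter peak of each of the 71 ribosomal protein genes with a summit in the series-level list (log axis), in order of signal and coloured by the part of the ribosome, with the 20 highest named and the median of all genes with a promoter summit as a dashed line. RpL34b (1072) and RpS27 (1034) stand highest, RpS24 (88.7) lowest, and 49 of the points lie above the line at 183.

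Among the stalk genes, RpLP0 encodes the protein that anchors the P1 and P2 proteins to the large subunit. Its peak had a signal of 351 in the series-level list, 170 in replicate 1 and 180 in replicate 2, with the summit 21 bp upstream of a start site. RpLP0-like, whose product is related to a yeast ribosome assembly factor, had 383 in the series-level list, 250 in replicate 1 and 132 in replicate 2. Its summit lay 55 bp upstream of its start site, but the start site of 14-3-3zeta was nearer, at 32 bp. RpLP1 had 97.5 in the series-level list and 53.1 in replicate 1, and no thresholded summit in replicate 2. RpLP2 had none in any thresholded list. Of the acidic stalk pair P1 and P2, only RpLP1 was thus called, and its peak ranked 5487 of 8786.

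The large-subunit gene with the highest signal was RpL34b (FBgn0037686), at 1072 in the series-level list, 646 in replicate 1 and 421 in replicate 2. Its peak at chr3R:9401150-9401507 ranked 150 of 8786 and had its summit 78 bp upstream of a start site. RpL7 had 750 in the series-level list, 448 in replicate 1 and 306 in replicate 2, with the summit 44 bp inside the gene. Among genes with a promoter summit their percentile in the series-level list was 96.7 for RpL34b and 92.7 for RpL7. RpL23A, a protein at the exit of the nascent peptide tunnel, had 671 in the series-level list, 406 in replicate 1 and 275 in replicate 2. RpL32, known as rp49 and often used as a reference gene in fly expression work, had 597 in the series-level list, 376 in replicate 1 and 231 in replicate 2. RpL14, a Minute gene, had 520 in the series-level list, 326 in replicate 1 and 196 in replicate 2. These 3 summits lay upstream of the start site, by 87 bp at RpL23A, 124 bp at RpL32 and 41 bp at RpL14. RpL41, the smallest ribosomal protein, had 449 in the series-level list, 268 in replicate 1 and 182 in replicate 2. RpL28 had 447 in the series-level list, 270 in replicate 1 and 153 in replicate 2. RpL8 had 437 in the series-level list, 275 in replicate 1 and 163 in replicate 2. In the series-level list they stood between the 82.6th and the 83.3rd percentile of genes with a promoter summit. RpL22 followed with 344 in the series-level list, 207 in replicate 1 and 142 in replicate 2. RpL17 had 324 in the series-level list, 180 in replicate 1 and 151 in replicate 2.

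Of the small-subunit genes, RpS27 (FBgn0039300), a zinc-binding protein, had 1034 in the series-level list, 658 in replicate 1 and 386 in replicate 2. Its peak at chr3R:25247391-25247657 ranked 168 of 8786, and the summit lay 18 bp upstream of a start site. RpS21, which interacts with SA in the fly, had 776 in the series-level list, 531 in replicate 1 and 251 in replicate 2. Its partner gene sta had 115 in the series-level list and 74.4 in replicate 1, and no thresholded summit in replicate 2, so the pair stood at the 93.4th and the 28.0th percentile. RpS28b had 677 in the series-level list, 398 in replicate 1 and 286 in replicate 2. RpS29 had 609 in the series-level list, 377 in replicate 1 and 238 in replicate 2, with the summit 4 bp upstream of its start site. RpS20 had 601 in the series-level list, 381 in replicate 1 and 222 in replicate 2, with the summit 192 bp upstream of its start site and 141 bp from that of CG17271. These 3 genes stood between the 89.6th and the 91.3rd percentile. RpS4 had 395 in the series-level list, 226 in replicate 1 and 173 in replicate 2. RpS25 had 335 in the series-level list, 180 in replicate 1 and 154 in replicate 2. RpS3A, the only member on chromosome 4 and a Minute gene, had 311 in the series-level list, 182 in replicate 1 and 133 in replicate 2. On that chromosome 8 of the 80 protein-coding genes had a promoter summit.

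The replicates placed the members in a like order. Across the 65 members with a summit in both replicates and the series-level list, the signals had a Spearman rho of 0.903 and a Pearson r of 0.932 on the log2 scale. Across the 3540 protein-coding genes with a summit in both replicates, rho was 0.906 and r was 0.929. These are descriptions across genes, which share libraries and are not independent. Of the 65 members, 54 had the higher percentile in replicate 1, whose list was longer, with 7151 peaks against 5445 in replicate 2. The summit position relative to the start site differed by a median of 10 bp between the replicates, and by at most 50 bp at 58 of the 65 members.

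**Figure D2:**
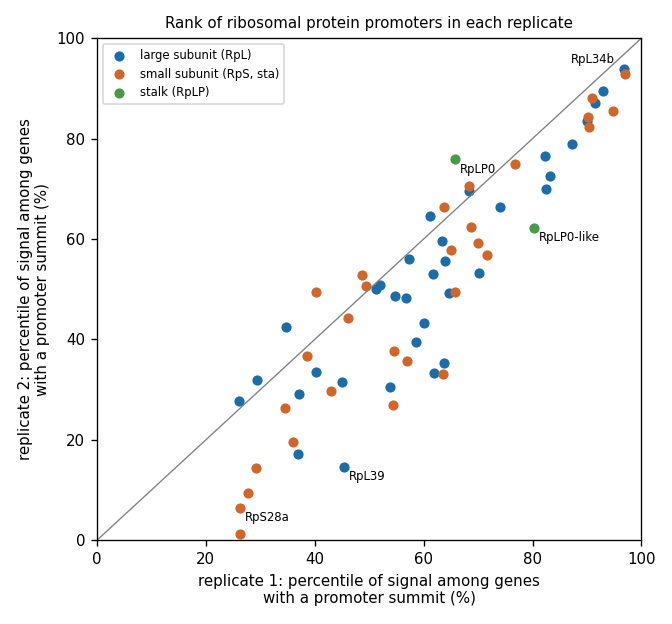
Percentile of the strongest promoter signal among genes with a promoter summit in replicate 1 (horizontal) and replicate 2 (vertical), for the 65 ribosomal protein genes in all 3 lists, with the line of equal percentiles. RpL34b is near the top in both, RpLP0 lies above the line and RpLP0-like below it, and 54 of the 65 points lie below the line.

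Summits at ribosomal protein genes lay close to the start site. The strongest summit was a median of 45 bp from the nearest start site of the member, against 152 bp over all genes with a promoter summit. The replicates gave 46 bp and 45 bp for the members, or 45.5 ± 0.707 bp, against 154.5 ± 10.6 bp for all genes (SD, n = 2 each). The gap between members and all genes was larger than the spread between the replicates. Within 50 bp of a start site lay 56.3% of the members' summits, against 17.7% of those of all genes. Within 100 bp lay the strongest summit of 56 members, which is 60.2% of all 93, against 13.2% of all protein-coding genes. Most summits were upstream, in 83.1% of the members with a summit and in 81.9% of all such genes. The genes of the mitochondrial ribosome had a median distance of 108 bp and the eIF genes 62 bp. Measured to the canonical start site alone, the median was 56 bp for the members and 167 bp for all genes, and the members had a mean of 1.70 annotated start sites per gene, against 1.41 for all genes. A second summit within 1 kb was found at 19 members (20.4%), against 8.68% of all protein-coding genes.

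**Figure D3:**
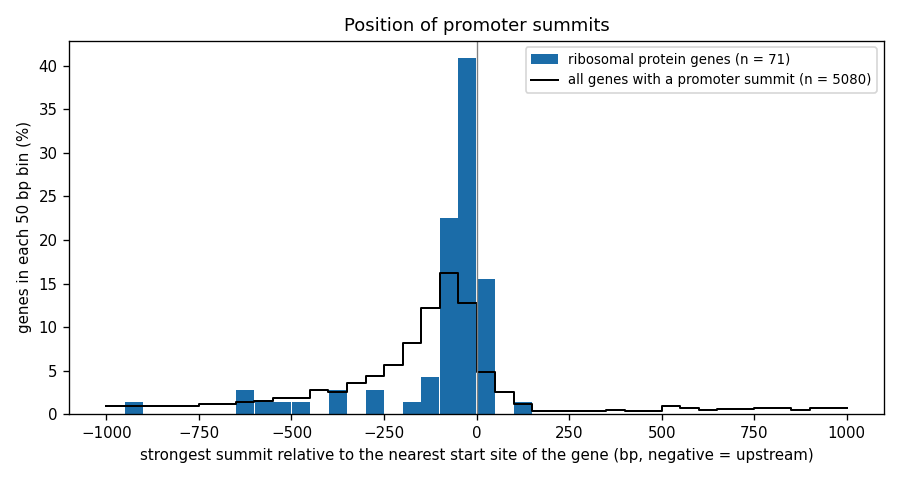
Share of genes (%) by the position of their strongest promoter summit relative to the nearest start site of the gene, in 50 bp bins (negative values are upstream), for 71 ribosomal protein genes (bars) and 5080 protein-coding genes with a promoter summit (line). The bin just upstream of the start site holds 40.8% of the ribosomal protein genes and 12.7% of all genes.

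At 59 of the 71 members the strongest summit had the member's start site as its nearest, 83.1%, against 70.6% of all genes with a promoter summit. A start site of another protein-coding gene lay within 1 kb of the strongest summit at 69.0% of the 71, against 59.8% of all genes with a promoter summit. At RpS27A, which encodes a ubiquitin fusion, the start site of Ip259 was equally near, at 59 bp. The other 12 had a nearer protein-coding neighbour, so their peaks cannot be assigned to the member alone. They include RpL13, whose summit lay 111 bp upstream of its start site and 27 bp from that of Dref, the gene of the factor that binds TATCGATA. Also in this class were RpS6 (the target of S6 kinase, with bys nearer), RpS15 (CG4927), RpL35 (Rab18), RpL34a (Trmt61), RpS19b (CG5854), RpL18 (Neos), RpL40 (CG3702) and RpL39 (Rap2l), besides RpS20 and RpLP0-like above. RpL39 had a further summit, and the strongest one in each replicate lay 53 bp and 51 bp upstream of its start site. When a summit was credited only to the protein-coding gene with the nearest start site, 62 members (66.7%) had a summit, against 27.5% of all protein-coding genes. With a distance of 500 bp, 68 members (73.1%) had a summit, against 32.0% of all protein-coding genes.

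Paralogous members differed in signal. By symbol, 14 pairs of paralogs were formed from 27 members, with RpS28b in 2 pairs. In 10 pairs 1 gene had a series-level summit and in 4 pairs both had, and there was no pair without. The gene without a summit was RpL10Aa beside RpL10Ab (214), RpL22-like beside RpL22 (344), RpL24-like beside RpL24 (223), RpL37-2 beside RpL37-1 (165), and RpL7-like beside RpL7 (750). For the small subunit it was RpS10a beside RpS10b (220), RpS14a beside RpS14b (221), RpS15Ab beside RpS15Aa (300), RpS28-like beside RpS28b (677), and RpS5b beside RpS5a (222). Of these genes without a summit, RpL22-like and RpS5b are known for expression in the germ line. Where both had a summit, RpL34a had 207 against 1072 for RpL34b, and RpS28a had 125 against 677 for RpS28b. RpS19b had 169 against 226 for RpS19a, and RpLP0-like had 383 against 351 for RpLP0. The order within the first 3 of these pairs was the same in both replicates, whereas RpLP0-like was above RpLP0 in replicate 1 and below it in replicate 2. The peaks of RpL34a, RpS19b and RpLP0-like cannot be assigned to the paralog alone. Their summits lay 144, 908 and 55 bp from its start site, but 85 bp from that of Trmt61, 526 bp from CG5854 and 32 bp from 14-3-3zeta. RpS14a and RpS14b lie next to each other and encode the same protein, and reads shared between such copies could be placed at either or dropped, which the peak lists do not show. Outside the pairs, 54 of 66 members had a summit.

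**Figure D4:**
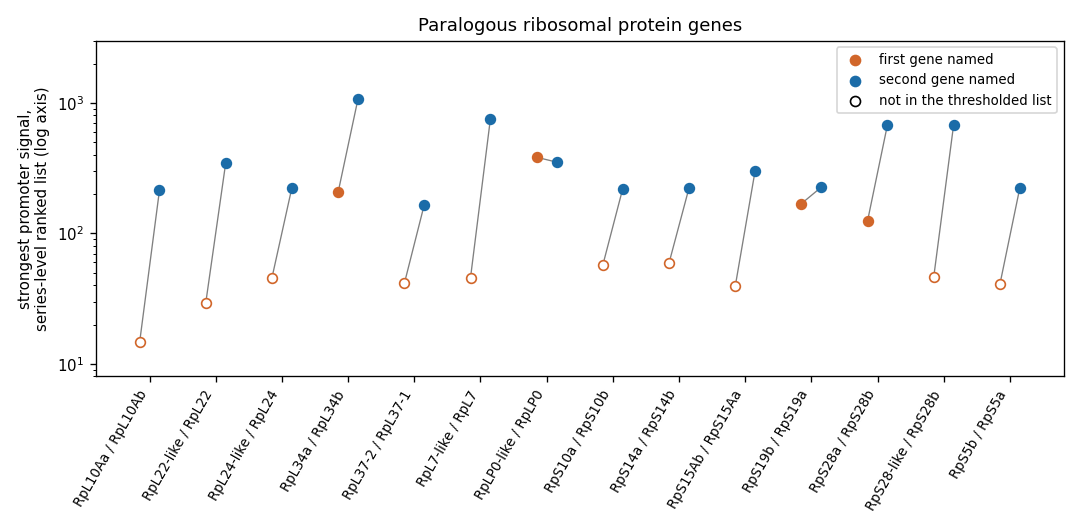
Strongest promoter signal in the series-level ranked list (log axis) for the genes of 14 paralog pairs, with the gene named first in orange and the second in blue, and open circles for genes not in the thresholded list. In 10 pairs the first gene is an open circle, with signals between 14.6 (RpL10Aa) and 59.3 (RpS14a), and in the other 4 pairs both are filled.

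A series-level summit was missing at 22 members, and 9 members differed between the lists. RpL12, RpL35A, RpL40, RpLP1, RpS24 and sta had a summit in the series-level list and in replicate 1 but not in replicate 2. In the ranked list of replicate 2, which holds peaks before the threshold, these 6 had signals of 31.6 (RpS24) to 54.0 (RpL40) and scores of 58 (RpL12) to 712 (sta), under the score of 830 that is the lowest in the thresholded lists. The one at RpS24 lay 475 bp downstream of its start site, apart from its series-level summit 25 bp upstream. RpL21 and RpS14a had a thresholded summit in replicate 1 only, with signals of 62.0 and 37.2. RpL15 had one in replicate 2 only, with a signal of 62.3. In the series-level list the 6 members missed by replicate 2 had signals of 88.7 to 144, below the median of 183 over all genes with a promoter summit and on both sides of the median of 121 over all peaks of that list.

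Of the 22 members, 19 had no thresholded summit in any of these lists. RpL13A is a case apart: its ranked peak, 69 bp upstream of the start site, had a signal of 224 and a score of 1000, and it had scores of 1000 in the ranked lists of both replicates, yet it was in no thresholded list. It was also the 1 member added when the ranked list was read at the lowest thresholded score. Another 16 of the 22 had a weaker ranked series-level peak within 1 kb, with a median signal of 43.4, a range of 14.6 to 59.3 and scores of 38 to 670. The median of the whole ranked list, which holds 129565 peaks, was 24.6. The share of all protein-coding genes with a ranked peak within 1 kb was not computed, so these peaks are not read as binding. RpLP2, the partner of RpLP1 in the stalk, had 57.9 at 16 bp upstream, RpS9 had 40.1 at 80 bp upstream and RpS14a had 59.3 at 14 bp upstream. At RpS3 and RpS13, both Minute genes, it was 32.3 at 495 bp and 56.8 at 178 bp inside the gene. RpS10a had 57.3 at 296 bp, RpL6 had 44.0 at 899 bp, RpS5b had 40.8 at 227 bp and RpL7-like had 45.7 at 511 bp, all downstream of the start site. The remaining downstream ones were RpS28-like (46.4 at 783 bp), RpL24-like (45.7 at 583 bp), RpL37-2 (41.3 at 483 bp) and RpL22-like (29.5 at 591 bp). The upstream ones were RpL9 (42.7 at 403 bp), RpS15Ab (39.3 at 842 bp) and RpL10Aa (14.6 at 728 bp). Most of these summits thus lay farther from the start site than the median of 45 bp at members with a thresholded summit.

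The last 5, RpL5, RpL10, RpL15, RpL21 and RpL38, had no series-level ranked summit within 1 kb at all. RpL5 joins the 5S ribosomal RNA with RpL11, which had a peak of 213, and RpL38 is a Minute gene. Their surroundings were thin in peaks: within 25 kb of the canonical start site RpL5 had 1 ranked peak, RpL10 had 6, RpL15 had 5, RpL21 had 4 and RpL38 had 24, and none of the 5 had a series-level thresholded peak. Members with a series-level summit had a median of 63 ranked and 7 thresholded peaks in the same distance. The other 17 members without one had a median of 66 and 6. Single genes departed from this. RpS3A, which had a summit, had 1 ranked and 1 thresholded peak, and RpL10Aa, 1 of the other 17, had 27 and 0. The part of the low density around the 5 genes in their missing summits was not tested.

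The elements shown above were found at some of the members' summits. TATCGATA lay within 50 bp of the strongest summit at 15 of 71 members (21.1%), against 172 of the 3573 distinct strongest summits of all genes (4.81%). GGTCACAC, on either strand, lay there at 7 of 71 members (9.86%), against 2.32% of all such summits. The centre of TATCGATA was a median of 20.5 bp from the summit, between 0.5 bp at RpS25 and 40.5 bp at RpL37-1. Members with TATCGATA at the summit had a median signal of 256 (n = 15) and those without it 225 (n = 56), and the ranges overlapped, at 88.7 to 609 with it and 97.5 to 1072 without it. Over all genes with a promoter summit the order was the other way, with a median of 151 with TATCGATA and 186 without it. Members with GGTCACAC at the summit had a median signal of 202 (n = 7) and those without it 234 (n = 64). With the whole promoter of 250 bp before to 50 bp after the start site, TATCGATA was in 28 of 93 members (30.1%), against 8.94% of all protein-coding genes. GGTCACAC was in 14 members (15.1%), against 7.54% of all protein-coding genes. Of the 71 members with a summit, 31.0% held TATCGATA and 15.5% GGTCACAC, against 13.5% and 11.1% of all protein-coding genes with one. In the genes of the mitochondrial ribosome the promoter shares were 20.5% for TATCGATA and 11.0% for GGTCACAC. The base composition also differed, with a median AT content within 50 bp of the summit of 52.5% for members and 61.4% for all promoter summits.

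C/EBP sites were matched at a minority of these summits. TTNCNNAA, a relaxed form of the site that also covers TTGCGCAA, lay on either strand within 50 bp of 18 of the 71 members' summits (25.4%), against 31.4% of the strongest summits of all genes. The palindrome TTGCGCAA was at none of the 71, and at 0.196% of the summits of all genes. In the promoters, TTNCNNAA was found in 42 of 71 members with a summit (59.2%), in 18 of 22 without (81.8%), and in 63.9% of all protein-coding genes. Of the 20 members with the highest signals, RpL23A, RpS29, RpL14, RpL28, RpL17 and RpS3A held it at the summit. Members with TTNCNNAA at the summit had a median signal of 206 (n = 18) and those without it 240 (n = 53). Over all genes with a promoter summit the order was the other way, at 197 with TTNCNNAA (n = 1599) and 177 without it (n = 3481). A match is only a run of letters, and the search leaves out every other form of the site.

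The TCT initiator was searched as CTTTNT within 10 bp of an annotated start site, on the strand of the gene, and is shown in capitals for 6 of the members of highest signal that hold it, again from the dm6 assembly.
RpL34b: aacagggttgccacCTTTCTt
RpS21: cagctgtcatttCTTTCTctt
RpL7: gcacgtttccggtCTTTCTtt
RpL32: ccaccagCTTTTTcttttcgc
RpS25: tttccgccctccatCTTTCTg
RpS15Aa: ccttccgtttccCTTTCTttt
The windows lie at chr3R:9401216-9401236 (minus strand), chr2L:2856101-2856121 (plus), chr2L:10201090-10201110 (plus), chr3R:30046151-30046171 (minus), chr3R:11216277-11216297 (minus) and chrX:13337628-13337648 (minus). The element was at 31 of the 93 members (33.3%), against 3.05% of all protein-coding genes and 2 of the 73 genes of the mitochondrial ribosome. It was at 24 of the 71 members with a summit (33.8%) and at 7 of the 22 without (31.8%). Members with it had a median signal of 234 (n = 24) and those without it 229 (n = 47). The search leaves out every other form of the initiator and accepts a match anywhere in the window. These are therefore counts of matches to CTTTNT, not of all TCT initiators. At least 1 of the 3 elements TATCGATA, GGTCACAC and CTTTNT was at 55 of the 93 members (59.1%), against 18.0% of all protein-coding genes. RpS25 and RpS15Aa appear in both sets of sequences, with TATCGATA at the summit and CTTTNT at a start site.

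**Figure D5:**
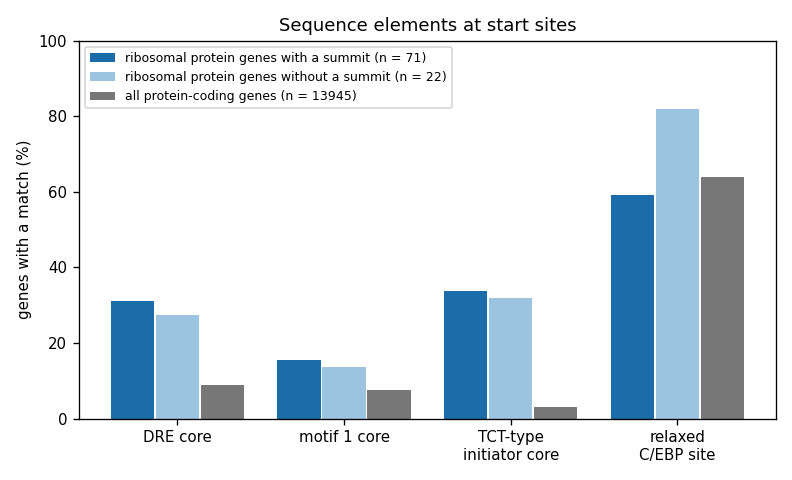
Share of genes (%) with a match to TATCGATA (DRE core), GGTCACAC (motif 1 core) or TTNCNNAA (relaxed C/EBP site) in the promoter, or to CTTTNT within 10 bp of a start site (TCT-type initiator core), for ribosomal protein genes with a summit (n = 71), those without (n = 22) and all protein-coding genes (n = 13945). CTTTNT is at 33.8%, 31.8% and 3.05% of them, and the relaxed C/EBP site at 59.2%, 81.8% and 63.9%.

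Genes that build or control ribosomes were set beside the members. Of 31 genes listed, 30 were matched in the annotation. A series-level promoter summit was at 20 of these, or 66.7%, against 36.4% of all protein-coding genes. Replicate 1 had a summit at 22 of the 30 and replicate 2 at 17. The highest was eIF6, a factor that keeps the subunits apart, with 3676 in the series-level list, 1984 in replicate 1 and 1708 in replicate 2, above every ribosomal protein gene. Among genes of the nucleolus, Ns2 had 688, Nop56 had 383, Nopp140 had 325 and Fib, the fibrillarin that methylates ribosomal RNA, had 313. Rack1, a small-subunit protein outside the naming rule, had 319, in the range of RpL17 and RpS3A. M1BP had 332 and Dref 236, the peak it shares with RpL13. Irbp18, a C/EBP-family partner of Xrp1, had 377 and Xrp1, which acts in cells with a Minute mutation, had 126. The list had no series-level summit at Myc, S6k, Tsc1, gig, the RNA polymerase I genes Polr1A and Polr1B, Tif-IA, Nmd3, nop5 and Lst8. Of these, nop5 (42.9 at 128 bp upstream) and Lst8 (45.0 at 11 bp upstream) had a thresholded summit in replicate 1 only.

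The members' genes are short, with a median length of 1318 bp against 2166 bp for all protein-coding genes. In 29 members the annotation places small nucleolar RNA genes on the same strand, 76 in all, and 25 of these 29 members had a series-level summit, against 46 of the 64 members without such genes. Of all 84 protein-coding genes that hold such genes, these members included, 64 had a series-level summit, or 76.2%, and of all protein-coding genes 36.4%. RpS5a holds the most, 14, and had a signal of 222. By chromosome arm, a series-level summit was found at 14 of 15 members on X, against 38.0% of all protein-coding genes there, and at 13 of 19 on 2L, against 33.8%. It was found at 16 of 21 members on 2R, against 37.7% of all protein-coding genes there, at 11 of 14 on 3L, against 38.0%, and at 16 of 23 on 3R, against 35.8%.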

How the data were processed

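Peak lists of 2 ChIP-seq samples on the dm6 genome were used, 1 group with replicates 1 and 2, per the labels. The sources used here name no aligner, peak caller or settings. The deposited lists give for each peak a signal value, a summit offset and a score, with a lowest score of 830 in the deposited thresholded lists. The series-level lists are named for IDR, a measure of reproducibility. How the score of each list was derived is not stated here. The series-level list held 8786 peaks, the conservative one 8282, replicate 1 7151 and replicate 2 5445. No read counts are given, so depth is unknown and no counting interval was computed.

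Summits on the 6 arms were joined to every annotated start site of Ensembl release 115 genes within 1 kb, and the strongest summit per gene was kept. All 5 sequence elements were searched in the RefSeq copy of the same assembly, within 50 bp of a summit, in the promoter or within 10 bp of a start site. Percentiles are ranks among genes with a promoter summit of the same list. Values per replicate came from each replicate's own list (SD, n = 2). Python 3.11.15, pandas 2.3.3, numpy 2.4.6 and scipy 1.17.1 were used, and the joins and searches were tested on simulated data. The labels do not say how the biological replicates differ.

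Full values are given for the 20 members of highest series-level signal, the stalk genes and sta. Paralogs, members without a series-level summit or with calls that differ between lists, and most members with a nearer neighbour are named with their values. Some members are not reported here by name. Mitochondrial ribosomal and eIF genes and a list of ribosome assembly and control genes were set beside them. The members and lists were chosen with earlier results of these data known. Alternatives were other distances, lists, replicates, start sites and motif windows. The gene listed as Tor had no unique match in the annotation and was left out.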

Additional observations from a re-analysis of the deposited data

How the results depend on the processing

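The count of members with a promoter summit, 71, was between 62 and 73 under every alternative tried, and between 66 and 73 in the lists of single replicates. The members' share minus that of all protein-coding genes was 39.9 percentage points, and its replicate lists gave 44.3 and 44.3, so that the spread between them (SD 0.0387) is smaller than the shift under any alternative. It was 41.2 with 500 bp, 44.7 with 250 bp, 40.5 with the conservative list, 40.3 with the ranked list at the lowest thresholded score, 43.7 with peaks that overlap a thresholded peak of each replicate, 39.2 with the nearest start site only, 38.8 with any base of the peak, 42.4 with the canonical start site and 43.1 without symbols ending in -like. The median percentile, 59.6, was 46.1 with peaks that overlap a thresholded peak of each replicate, and 50.3 to 57.3 in the replicate lists, so that it lay on either side of the middle of all genes. The cause was not tested. The median distance, 45 bp, was 43 bp with 500 bp, 37 bp with 250 bp, 46.5 bp with overlapping peaks, 29 bp with the nearest start site only, 56 bp with the canonical start site, and 45 to 46 bp in the replicate lists. TATCGATA was at 9 summits within 25 bp, against 15 within 50 bp, and at 14 to 15 in the replicate lists. GGTCACAC was at 4 within 25 bp, against 7 within 50 bp, and at 6 to 8 in the replicate lists, where a narrower window can only lower both counts. No paired analysis was possible because the samples form 1 group. No control sample was analysed here, so no background was measured at these promoters, and depth is unknown. Peaks shared with a neighbouring gene cannot be assigned to the member alone.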
